A study of Mus musculus with 477 samples.

Results

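Mammary luminal cells of 2 *Trp53* mutant mice, 1 virgin (v53L, 40 cells) and 1 at day 12.5 of pregnancy (p53L, 36 cells), were compared. These 76 of the 477 cells in the series were all the cells whose source label was v53L or p53L, and all carried the prefix of 1 Fluidigm C1 chip, a microfluidic device that isolates single cells and makes full-length cDNA from each. Both females were 3 to 4 months old, on a mixed C57BL/6 and 129/Sv background, and carried *MMTV-Cre*, floxed *Trp53* and the *ROSA* mT/mG reporter, with *Brca1* wild type. The sample labels do not state the *Trp53* genotype. The study's methods give it as *Trp53* fl/+ and a legend among its supplements gives fl/fl for its *Trp53* mutant mice, so whether an intact copy remained was not settled here. MMTV-Cre acts mainly in mammary epithelium, and mGFP marks the cells in which Cre has acted. Living cells were sorted as DAPI-, CD24Hi, CD29Lo and mGFP+, the gate for luminal cells. The stages were therefore compared in cells that had seen Cre, without a *Cre*-negative or *Trp53* intact mouse beside them. With 1 mouse a side the pair has no replicate spread of its own. The stages were not tested against each other and no p-value is given for that contrast, and mouse and stage cannot be told apart.

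The mammary luminal layer holds hormone-sensing cells, which carry the receptors for estrogen, progesterone and prolactin, and secretory alveolar precursor cells, which carry few of them. Ovarian steroids act on the hormone-sensing cells, which release paracrine signals to their neighbours, and prolactin acts through JAK2 and STAT5 to drive alveolar differentiation. By mid pregnancy the alveolar cells multiply and begin to make caseins and to take up and synthesize milk fat, while full secretion waits for birth.

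The virgin mouse gave 40338926 reads and the pregnant mouse 45835235. Reads per cell ranged from 334296 to 1632277 in v53L and from 562327 to 2081201 in p53L. After every cell was thinned at random to 100000 reads, the cells held a median of 2788 genes in v53L and 3366 in p53L, and the ranges overlapped (1644 to 4478 and 1906 to 5667). The p53L cells held numbers 1 to 47 of the chip and the v53L cells 48 to 96, so position and stage cannot be told apart. The luminal markers *Krt18* and *Epcam* were read in every cell. *Krt18* ranged from 1672 to 32669 CPM (reads scaled to the same total in every cell) over v53L cells and from 447 to 14839 CPM over p53L cells, and *Epcam* from 170 to 2795 CPM and from 135 to 4879 CPM. Among markers of other cell types the 5 adipocyte genes had no read, and the endothelial, immune and red cell lists each summed to at most 16.3 CPM. The fibroblast list was at 176 CPM in v53L and 1.72 CPM in p53L, and the basal list at 1.71 and 102 CPM, with 1 p53L cell at 1646 CPM. *Trp53* itself was read at 93.4 CPM in v53L and 177 CPM in p53L, which does not measure the deletion, since reads are counted over the whole gene.

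The cells of a mouse were added up to 1 profile. Genes with at least 10 CPM in either mouse were counted as tested (8749), and a gene was past the fold when log2 of (CPM + 1) differed by at least 2, a 4-fold difference. CPM is not corrected for gene length, so levels are compared between mice and not between genes. Of the tested genes 1038 (11.9%) were past the fold in the direction of p53L and 1194 (13.6%) in the direction of v53L. The median difference over all of them was -0.08. The genes higher in p53L made up 46.5% of those past the fold. The share was 51.6% with TMM factors, 54.8% with the milk protein list left out of the totals, and 74.1% when cells with at least 2 of 4 hormone-sensing genes were left out, and these settings moved the median of all genes by 0.13, 0.22 and 0.70 on the log2 scale. A sum cannot tell fewer cells with a gene from less RNA per cell, so the cell counts are given beside it.

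*Glycam1*, a mucin-like glycoprotein secreted into milk (chr15:103562759-103565081, mm10), differed most among the genes that the naming rule selected. It had 0 reads in all 40 v53L cells. In p53L it was read in all 36 cells, from 1.93 CPM through a median of 3347 to 31128 CPM. It was the only one of the 8749 tested genes (0.0114%) in which every p53L cell lay above every v53L cell, and for 0 genes did every v53L cell lie above every p53L cell. Its sum was 6209 CPM in p53L and was at least 83494-fold higher than the v53L sum, with 3 reads over the group standing in for the count of 0.

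Of the 10 genes so named toward p53L, 3 belong to the fatty acid uptake and milk lipid list. *Cd36*, a fatty acid transporter of the plasma membrane (chr5:17781690-17888801), had reads in 1 of 40 v53L cells, at 34.99 CPM, against a range of 1.30 to 5070 CPM and a median of 1469 CPM in p53L. The sums were 0.471 and 1788 CPM, a ratio of 3796 with an exact 95% interval of 2430 to 6305 that covers counting error only. *Thrsp*, a nuclear protein that supports lipogenesis, reached 10.4 CPM in the highest v53L cell and had a median of 791 and a maximum of 8679 CPM in p53L. *Fabp3*, which carries fatty acids in the cytosol, had sums of 5.75 and 1007 CPM. After thinning it was read in 2 of 40 v53L cells (5.00%) and 33 of 36 p53L cells (91.7%). For these 3 genes all but 1 or 2 v53L cells had no read, and 0 v53L cells lay above the p53L median.

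The other genes that led toward p53L had various roles. *Gjb6*, a gap junction connexin, had 2 reads in v53L and 229 CPM in p53L. *Atp7b*, a copper transporter, had 0 and 84.7 CPM, with reads in 24 of 36 thinned p53L cells. *St6gal1*, a sialyltransferase, had 1 read against 94.7 CPM, and *Fam13a* 0 reads against 199 CPM. *Nrep* (4.71 and 205 CPM) and *Cluh* (2.08 and 97.5 CPM), an RNA-binding protein for mitochondrial transcripts, completed the 10. These 10 were chosen from 112 genes past the fold with at least 50 CPM and a read in at least 50% of thinned p53L cells, so their size is a property of the choice.

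**Figure D1:**
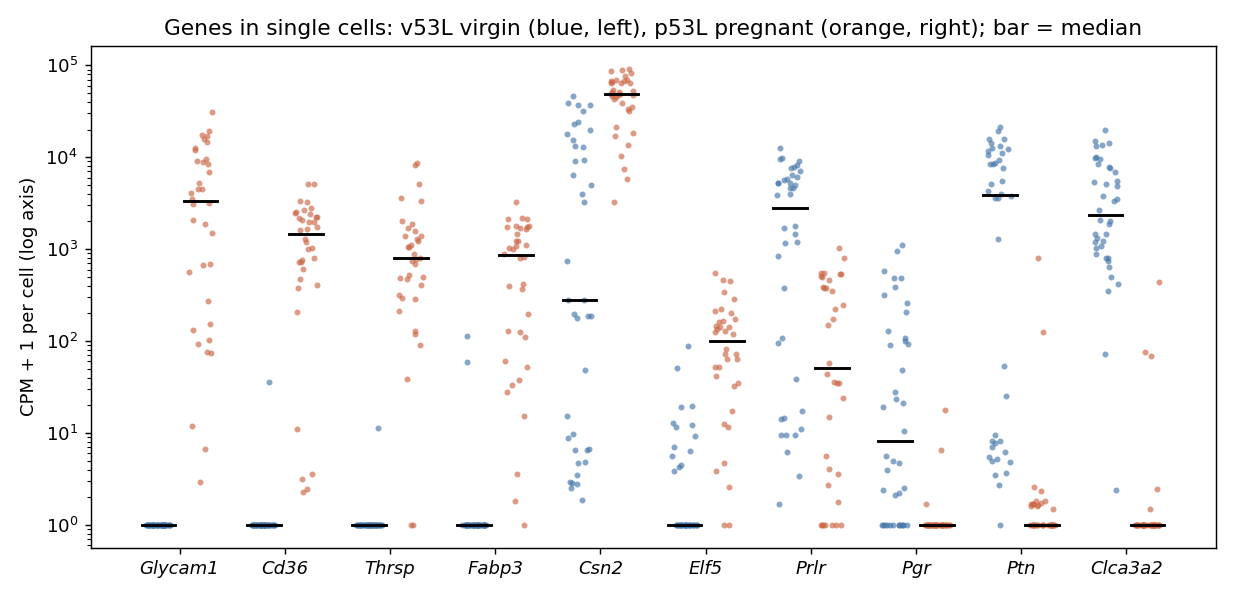
CPM + 1 of 10 genes in each of the 40 v53L cells (blue, left) and 36 p53L cells (orange, right), log axis, with 1 point per cell and a bar at the median. *Glycam1*, *Cd36*, *Thrsp* and *Fabp3* lie at the floor in nearly all v53L cells, *Csn2* spans 0.873 to 46813 CPM in v53L, and *Prlr*, *Ptn* and *Clca3a2* have high medians in v53L. *Pgr* has reads in only some of the v53L cells.

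At least 5 of the 8 milk protein genes were read in every p53L cell after thinning. Of the 8 genes, 6 were past the fold toward p53L and 0 toward v53L, and their median log2 difference was 2.82 (-0.08 over all tested genes). *Csn2*, beta-casein (chr5:87692624-87699630), ranged in v53L from 0.873 to 46813 CPM with a median of 281 CPM, and in p53L from 3287 to 91761 CPM with a median of 48636 CPM. No v53L cell exceeded the p53L median, although the ranges overlapped. *Csn1s2a* was summed at 6855 and 62867 CPM, *Csn1s1* at 6823 and 36572 CPM, and *Wap*, the whey acidic protein, at 18.7 and 444 CPM. *Csn1s2b* had 0 reads in v53L and 15.6 CPM in p53L, of which 76.5% lay in 1 cell. *Csn3*, kappa-casein, was already high in v53L at 17830 CPM against 22841 CPM. *Lalba*, the whey protein that sets up lactose synthesis, ran the other way with 698 CPM in v53L and 196 CPM in p53L. It was read in 19 of 40 and 23 of 36 thinned cells, so its cells overlapped widely.

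The 250 bases before the start of *Csn1s1*, *Csn2*, *Csn1s2a* and *Glycam1* are shown because these genes were on together in p53L. *Prlr*, the prolactin receptor, was lower in p53L and is shown beside them at 1 of its 3 starts. Sequences are from RefSeq (GRCm38.p6), 5′ to 3′ on the strand of the gene, and capitals mark TTCNNNGAA, the palindrome that STAT proteins bind, which reads alike on both strands.
Csn1s1 (chr5:87665958-87666207, + strand): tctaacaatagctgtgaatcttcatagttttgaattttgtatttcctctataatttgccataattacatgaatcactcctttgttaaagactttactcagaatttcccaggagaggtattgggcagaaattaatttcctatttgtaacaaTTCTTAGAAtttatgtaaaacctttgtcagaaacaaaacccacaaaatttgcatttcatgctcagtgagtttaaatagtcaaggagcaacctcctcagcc
Csn2 (chr5:87699426-87699675, - strand): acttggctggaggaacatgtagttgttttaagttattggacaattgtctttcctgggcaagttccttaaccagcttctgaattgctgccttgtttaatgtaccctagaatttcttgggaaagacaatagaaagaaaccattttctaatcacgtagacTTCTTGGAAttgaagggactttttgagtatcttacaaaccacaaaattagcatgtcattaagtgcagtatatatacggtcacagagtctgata
Glycam1 (chr15:103565082-103565331, - strand): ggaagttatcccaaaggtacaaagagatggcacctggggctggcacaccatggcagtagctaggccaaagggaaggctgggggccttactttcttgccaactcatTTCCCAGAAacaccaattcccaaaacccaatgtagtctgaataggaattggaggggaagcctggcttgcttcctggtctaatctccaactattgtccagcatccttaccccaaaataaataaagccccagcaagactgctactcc
Csn1s2a (chr5:87774200-87774449, + strand): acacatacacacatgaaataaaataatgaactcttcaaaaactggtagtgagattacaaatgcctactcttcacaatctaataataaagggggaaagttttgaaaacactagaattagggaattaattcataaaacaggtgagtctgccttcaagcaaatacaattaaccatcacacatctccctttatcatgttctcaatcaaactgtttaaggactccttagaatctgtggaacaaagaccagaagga
Prlr (chr15:10223656-10223905, + strand): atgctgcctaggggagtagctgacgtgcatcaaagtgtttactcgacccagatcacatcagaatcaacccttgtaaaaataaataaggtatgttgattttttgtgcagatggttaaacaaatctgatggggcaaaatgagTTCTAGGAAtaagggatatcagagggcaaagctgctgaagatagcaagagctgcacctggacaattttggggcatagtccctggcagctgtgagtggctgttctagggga
The palindrome lay 100 to 92 bases before the start of *Csn1s1*, 93 to 85 before that of *Csn2* and 145 to 137 before that of *Glycam1*. Of the 8 milk protein genes 6 were in the RefSeq promoter table, and 3 of these (*Csn1s1*, *Csn2* and *Glycam1*) held it. *Csn1s2a*, *Wap* and *Lalba* did not hold these letters in the window, and the windows of *Wap* and *Lalba* are not shown. The *Prlr* window shown is the only 1 of its 3 that held them, so the windows shown do not represent the lists. Of the 12 hormone-sensing genes in the table, with 19 starts, 2 held it at 1 of their starts, *Prlr* at the second of 3 (110 to 102 bases before it) and *Esr1*. Among all 32851 windows of this length, 7.02% held the palindrome. The estrogen response palindrome, searched as its full inverted repeat with 3 free bases between the arms, was in 0 of the windows of either list and in 0.0639% of all windows. A match is a description of letters and not of binding, and GENCODE places the start of *Csn2* inside the window shown.

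Of 23 tested members of the fatty acid uptake and milk lipid list, 10 were past the fold toward p53L, 1 toward v53L and 12 in neither direction, with a median of 1.94. *Plin2*, which coats lipid droplets, was read in all 36 p53L cells (89.9 to 7881 CPM, median 2520 CPM) and in 20 of 40 thinned v53L cells (median 7.52, highest 2072 CPM). *Lpl*, the lipase that releases fatty acids from circulating triglyceride, was summed at 42.1 and 663 CPM, *Acsl1*, which activates fatty acids, at 77.1 and 806 CPM, and *Fasn*, fatty acid synthase, at 112 and 675 CPM. *Olah*, the thioesterase that ends synthesis at medium chain length, had 0 reads in v53L and 65.1 CPM in p53L, in 16 of 36 thinned cells. The droplet secretion genes were not past the fold: *Btn1a1* was at 445 and 599 CPM, *Xdh* at 218 and 355 CPM, and *Mfge8* at 2191 and 669 CPM. In cells with at most 1 of the 4 hormone-sensing genes the direction of *Btn1a1* (1154 and 560 CPM) and *Xdh* (616 and 371 CPM) turned. *Scd2*, a desaturase, was the 1 member past the fold toward v53L, at 85.9 and 10.5 CPM.

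Milk defense proteins divided. *Wfdc18* was at 3080 CPM in v53L and 22908 CPM in p53L, and *Pigr*, the receptor that carries immunoglobulin A across the epithelium, at 25.4 and 231 CPM. *Spp1*, osteopontin, was at 21352 and 5468 CPM, and *Lcn2*, an iron-scavenging lipocalin, at 6692 and 2982 CPM. Of 7 tested members 2 were past the fold toward p53L and 0 toward v53L, and the sums of the list were nearly equal (34710 and 34889 CPM). Among alveolar and progenitor regulators, *Elf5*, the ETS factor needed for alveolar development, was at 5.90 and 135 CPM. It was read in 10 of 40 and 33 of 36 thinned cells, and no v53L cell lay above the p53L median. *Ehf*, a related ETS factor, was at 127 and 713 CPM, *Tspan8* at 128 and 5.89 CPM, and the other 7 genes of that list, *Kit* and *Gata3* among them, were not past the fold. Lactation transporters went both ways, with *Abcg2* (18.2 and 217 CPM), the amino acid carrier *Slc7a5* (13.2 and 77.1 CPM) and the zinc carrier *Slc30a2* (1.49 and 19.7 CPM) toward p53L. The sodium-potassium-chloride carrier *Slc12a2* (1716 and 120 CPM) and *Slc1a5* (23.1 and 1.77 CPM) were toward v53L.

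Hormone-sensing genes were lower in p53L. Of 12 tested members 9 were past the fold toward v53L and 1 toward p53L, the median was -3.86, and the sums were 6823 and 733 CPM. *Prlr* (chr15:10177238-10349180) ranged from 0.688 to 12726 CPM with a median of 2827 CPM in v53L, and from 0 to 1036 CPM with a median of 49.7 CPM in p53L. The ranges overlapped, but no p53L cell reached the v53L median. *Pgr*, the progesterone receptor, was read in 21 of 40 thinned v53L cells (sum 133 CPM) and 1 of 36 p53L cells (0.458 CPM). *Esr1*, estrogen receptor alpha, was at 469 and 39.1 CPM, and 89.5% of its p53L reads lay in 1 cell. *Foxa1*, which opens chromatin for the estrogen receptor, was at 58.3 and 14.1 CPM, a difference of -1.98 that fell just short of the fold. The remaining members past the fold toward v53L were the estrogen-induced ligand *Areg* (293 and 22.3 CPM), the transcriptional coregulator *Cited1* (399 and 16.9 CPM), *Prom1* (215 and 2.16 CPM), the transcription factor *Tbx3* (154 and 6.96 CPM), *Stc2* (1057 and 11.1 CPM) and *Ly6a* (299 and 60.2 CPM). *Calca*, which encodes calcitonin and CGRP, ran the other way with 5.08 and 320 CPM, but 87.1% of its p53L reads came from 1 cell. Paracrine signals from these cells were thinly covered: *Wnt4* was at 25.96 and 10.5 CPM, and *Tnfsf11* (RANKL) had 0 reads in v53L and 8.47 CPM in p53L, 99.5% of it in 1 cell.

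The 10 genes that led toward v53L, chosen by the same rule from 147, had sums of at most 18.4 CPM in p53L. *Ptn*, the heparin-binding growth factor pleiotrophin, ranged from 0 to 21342 CPM with a median of 3853 CPM in v53L, against a median of 0 and a highest cell of 799 CPM in p53L. *Clca3a2* was read in 39 of 40 v53L cells after thinning (median 2353 CPM) and 3 of 36 p53L cells, the highest at 439 CPM. Its close copy *Clca3a1* was at 178 and 0.109 CPM, and reads of the pair may have been split between them. *Cyp3a57*, a cytochrome P450 with close copies in the genome, was at 758 CPM against 2 reads, and *Col8a1*, a short-chain collagen, at 320 CPM against 1 read. *Rbms3*, an RNA-binding protein, was at 379 and 0.153 CPM, *Fcgbp* at 622 and 3.14 CPM, and *Cd200*, a surface ligand that restrains myeloid cells, at 1410 and 8.95 CPM. *Mtmr7* (279 and 1.16 CPM) and the tetraspanin *Tspan1* (354 and 2.03 CPM) completed the set.

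In the virgin mouse the milk protein and hormone-sensing genes lay largely in different cells, whereas every p53L cell was high in milk proteins. In v53L, 19 of 40 cells had a milk protein sum under 1000 CPM, 19 lay above the lowest p53L cell (12462 CPM), and 2 lay between. All 19 of the low cells, and 7 of the 19 high cells, had a read of at least 2 of the 4 genes *Esr1*, *Pgr*, *Prlr* and *Foxa1* after thinning. Over v53L cells the hormone-sensing and milk protein sums ran against each other (Spearman's rho = -0.77, n = 40 cells of 1 mouse), and over p53L cells they were weakly related (-0.18, n = 36). Both are descriptions, since the cells come from 1 mouse and both sums of a cell are scaled to the same total. The p53L cell lowest in milk proteins was also the highest in the hormone-sensing sum (16386 CPM), of which *Calca* made up 14200 CPM.

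**Figure D2:**
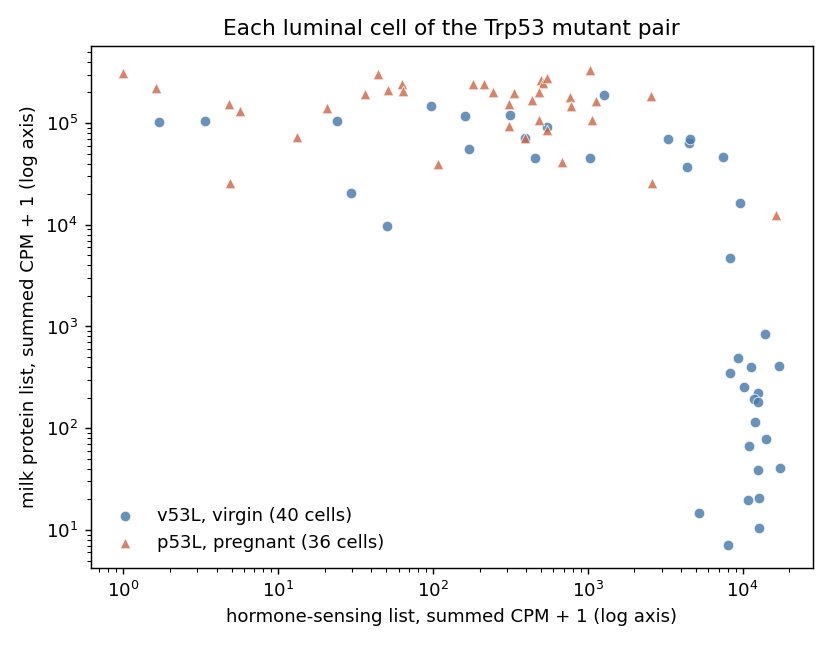
Summed CPM + 1 of the hormone-sensing list (horizontal, log axis) against that of the milk protein list (vertical, log axis), 1 point per cell. The v53L cells (circles) form a low-milk group of 19 cells at the right, whereas all 36 p53L cells (triangles) lie at or above 12462 CPM of milk proteins.

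Cells with at least 2 of these 4 genes made up 27 of 40 in v53L (67.5%, exact 95% interval 50.9 to 81.4%) and 6 of 36 in p53L (16.7%, 6.37 to 32.8%). With at least 1 gene the shares were 87.5% and 72.2%, with at least 3 they were 52.5% and 2.78%, and with all reads they were 82.5% and 30.6%. The limit of 2 genes divides a range and not types, for 8 v53L and 20 p53L cells had 1 of the genes and 6 and 5 cells had 2. In v53L the 27 cells held 99.9% of *Areg* reads and 100% of *Dcn* reads. The 6 p53L cells were not free of milk: their milk protein sums ran from 12462 to 201432 CPM, with a median of 167226 CPM, against a median of 251 CPM over the 27 v53L cells.

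The 13 v53L cells and 30 p53L cells with at most 1 of the 4 genes were also set side by side. This comparison was added after the values were seen. The milk protein sums were 100707 and 187539 CPM, a log2 difference of 0.90 where the whole mice differed by 2.12, and the cells overlapped (9760 to 188831 and 25473 to 335167 CPM). The milk lipid sums were 13962 and 15096 CPM, a log2 difference of 0.11 where the whole mice differed by 1.05. In these cells 2386 genes were past the fold toward p53L and 836 toward v53L. Those toward p53L made up 74.1% of the genes past the fold, against 46.5% over all cells. The median of all genes stood 0.70 further toward p53L. After thinning, the 13 v53L cells held a median of 2326 genes and the 30 p53L cells 3366. Of the 1038 genes past the fold toward p53L over all cells, 871 (83.9%) were past it here too, and of the 1194 toward v53L, 440 (36.9%) were. The whole-mouse sums hold these same cells and the median is shifted, so the 2 shares cannot be set against each other. Of the 10 named genes in each direction, 10 toward p53L and 6 toward v53L were past the fold, and 8 of the latter had the same direction. *Glycam1* (0 and 6288 CPM), *Cd36* (0 and 1981 CPM), *Thrsp* (1.08 and 1591 CPM), *Fabp3* (17.9 and 1105 CPM) and *Elf5* (5.86 and 147 CPM) were apart here too. The caseins *Csn2*, *Csn1s1* and *Csn1s2a* fell short of the fold here, with log2 differences of 1.24, 1.26 and 1.95. *Lalba* was past it toward v53L (-3.10). *Ptn*, at 5.62 and 0.302 CPM, was near 0 in these cells of both mice. *Clca3a2* (1002 and 17.98 CPM) and *Fcgbp* (1100 and 3.43 CPM) were apart in these cells as well. The direction turned in these cells for *Prlr*, *Areg*, *Stc2*, *Tbx3*, *Insr*, *Slc12a2*, *Scd2*, *Mtmr7*, *Tspan1*, *Ifit1* and *Bub1b*, which were past the fold over all cells, and, among genes that were not, for *Csn3*, *Btn1a1*, *Xdh*, *Stat5a*, *Cish*, *Wnt4*, *Kit*, *Mcm2* and others. Of these, *Tbx3*, *Insr*, *Scd2*, *Mtmr7*, *Tspan1*, *Bub1b*, *Wnt4* and *Mcm2* were under 10 CPM in these cells of both mice. *Ifit1* was nearly equal (31.9 and 31.5 CPM).

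Some milk genes stood higher in v53L in these cells. *Mfge8* was at 4732 CPM in the 13 v53L cells and 628 CPM in the 30 p53L cells, *Lcn2* at 15015 and 3058 CPM, *Spp1* at 52325 and 4959 CPM, and *Lalba* at 1872 and 218 CPM. *Scd1* was at 5478 and 1384 CPM. These 5 genes were higher in v53L over all cells as well, whereas *Csn3*, at 43496 and 23827 CPM, turned with the split. The milk defense list, nearly equal over all cells, was at 81063 CPM in the virgin and 35759 CPM in the pregnant cells. *Prlr* was the reverse, with 58.6 CPM in the v53L cells and 208 CPM in the p53L cells, where its medians were 9.92 and 38.99 CPM. *Prlr* is 1 of the 4 genes by which these cells were chosen, so its level there is limited by the choice. The same holds for the sum of the hormone-sensing list, which contains all 4 (363 and 322 CPM).

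Of 8 tested prolactin and STAT5 genes, *Elf5* was past the fold toward p53L and *Prlr* toward v53L. The other 6 were not: *Jak2* (73.3 and 28.3 CPM), *Stat5a* (140 and 62.8 CPM), *Stat5b* (8.55 and 18.7 CPM), the STAT5 targets *Cish* (45.8 and 72.7 CPM) and *Socs2* (30.7 and 91.9 CPM), and *Ccnd1*, cyclin D1 (61.6 and 174 CPM). In cells with at most 1 of the 4 hormone-sensing genes *Stat5b* (0.077 and 17.3 CPM) and *Socs2* (3.93 and 93.9 CPM) were past the fold toward p53L, and *Stat5a* (15.6 and 60.6 CPM) and *Cish* (115 and 70.7 CPM) turned direction. Among growth factor ligands and receptors 5 of 13 were past the fold toward v53L, with *Fgfr2* the best covered. It was at 619 CPM with reads in 31 of 40 thinned cells in v53L and at 19.3 CPM with reads in 3 of 36 in p53L. *Insr* (54.4 and 1.75 CPM), *Tgfa* (41.8 and 3.84 CPM), *Nrg1* (41.8 and 6.48 CPM) and *Areg* were the others. *Ereg* was the 1 member past the fold toward p53L, at 0 reads and 54.4 CPM, and 1 cell held 99.96% of its reads.

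Of 6 tested Wnt amplification genes 3 were past the fold toward p53L. *Rspo1*, a secreted ligand that strengthens Wnt signals, had 0 reads in v53L and 65.8 CPM in p53L, in 15 of 36 thinned cells and with 20.2% of reads in the top cell. *Lgr4*, a receptor for R-spondins, was at 139 and 784 CPM and was read in 15 of 40 and 34 of 36 thinned cells. *Rnf43*, the ligase they restrain, had 0 reads and 19.2 CPM, in 5 thinned p53L cells. In the Notch pathway *Hey1* (33.3 and 2.18 CPM) and *Rbpj* (70.4 and 16.5 CPM) of 7 tested genes were past the fold toward v53L.

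Proliferation genes separated the mice as well. Of 22 tested members 18 (81.8%) were past the fold toward p53L and 0 toward v53L, with a median of 4.35, and the sums were 96.3 and 1170 CPM. The marker *Mki67* had 1 read in v53L and 111 CPM in p53L, in 8 of 36 thinned cells. *Top2a*, the mitotic topoisomerase, had 0 reads and 85.3 CPM, *Rrm2*, a ribonucleotide reductase subunit, 0.124 and 151 CPM, and *Mcm5*, of the replicative helicase, 0.248 and 55.4 CPM. *Pcna* (17.4 and 32.4 CPM), *Mcm6* (36.7 and 126 CPM) and *Rrm1* (16.8 and 62.2 CPM) differed less, and *Mcm2* (12.1 and 5.50 CPM) leaned toward v53L. *Bub1b*, a mitotic checkpoint kinase and 1 of the 18, was past the fold the other way in cells with at most 1 of the 4 hormone-sensing genes (9.48 and 1.26 CPM). The signal lay in a subset of cells: 12 of 36 p53L cells had a read of 5 or more of the 24 genes after thinning (33.3%, exact 95% interval 18.6 to 51.0%), 7 had 10 or more, and the 12 cells held 83.7% of the reads of the list. The highest v53L cell had 4, and the limit of 5 genes was set after the values were seen, so that 0 of 40 v53L cells reached it follows from the choice. With all reads 1 of 40 v53L cells and 16 of 36 p53L cells had 5 or more. Of the 12 cells 2 had at least 2 of the hormone-sensing genes, and over p53L cells the milk protein and proliferation sums had a Spearman's rho of 0.02 (n = 36). The p53L cells also had more reads and more genes per cell, and the part of this in the counts that remain after thinning was not tested.

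**Figure D3:**
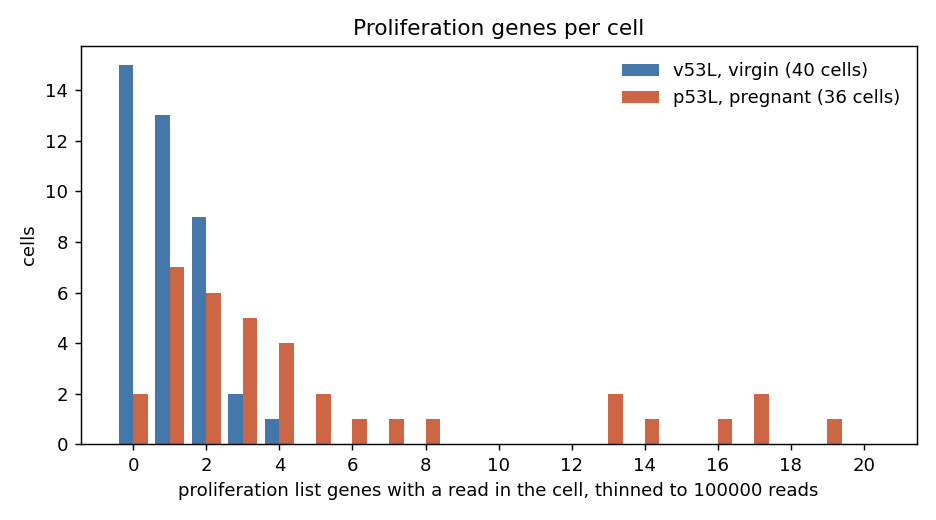
Number of cells (vertical) by the number of the 24 proliferation list genes with a read after thinning to 100000 reads (horizontal). All 40 v53L cells (blue) had at most 4 genes, and 12 of 36 p53L cells (orange) had 5 to 19.

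Of 14 tested members of the p53 target list 1 (7.14%) was past the fold toward each mouse. Of all tested genes 11.9% were past it toward p53L and 13.6% toward v53L. *Trp53inp1*, a p53-induced stress gene, was the 1 target toward v53L. It was read in all 40 v53L cells, from 765 through a median of 3413 to 10326 CPM, and in p53L from 0 through a median of 25.8 to 2180 CPM, so that every v53L cell lay above the p53L median. Among cells with at most 1 of the 4 hormone-sensing genes it was at 3091 and 350 CPM. *Plk2* was past the fold toward p53L (135 and 654 CPM), whereas *Cdkn1a* (153 and 63.7 CPM) and *Mdm2* (109 and 154 CPM) were not. In cholesterol handling the efflux carriers *Abcg1* (663 and 19.9 CPM) and *Abca1* (109 and 9.97 CPM) were past the fold toward v53L and *Dhcr7* toward p53L (1.02 and 14.5 CPM). The immediate early genes *Egr2* (0.0496 and 31.5 CPM) and *Fosb* (904 and 213 CPM) were past it in opposite directions. Of 15 ER folding and secretion genes, 12 glycolysis and hypoxia genes and 9 MHC class I genes, 0 were past the fold, and of 4 tested MHC class II genes 1 was, toward v53L. *Hspa5*, the ER chaperone BiP, was at 833 and 2091 CPM.

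Interferon-stimulated genes were past the fold toward p53L for 9 of 13 tested. Their sum had a median of 8.5 CPM over v53L cells and 321 CPM over p53L cells, and 31 of 36 p53L cells lay above the v53L median. Of *Ifit2* reads 95.1% came from 1 p53L cell, and 4 of 36 p53L cells with 5 or more of the genes held 66.7% of the reads of the list, as 2 of 40 v53L cells held 48.1% of those in v53L. With equal weight for each cell the log2 difference of the list was 1.43 and not 1.98. In cells with at most 1 of the 4 hormone-sensing genes it was 0.91. Among markers of other types, *Krt14* was read in 6 thinned p53L cells (71.3 CPM) and in 0 v53L cells. With *Krt14* included, 9 of the 10 basal genes had 0 reads in v53L, and *Krt5* and *Myh11* had 0 reads in both mice. *Dcn*, a proteoglycan of the fibroblast list, was at 176 CPM in v53L, with 12 cells over 100 CPM, all of them with at least 2 of the hormone-sensing genes, and at 0.851 CPM in p53L. Of the luminal list only *Krt7* was past the fold (382 and 13.5 CPM). The part of these genes in the other results was not tested.

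The other luminal mice of the series were *Brca1*-deficient. The double mutant pair, which differed from v53L and p53L by also carrying floxed *Brca1* on both copies, shared another chip and gave 39 virgin cells (vBr53L) and 53 pregnant cells (pBr53L). The *Brca1* fl/fl mice with intact *Trp53* were 1 virgin (vBrL, 35 cells) and 2 pregnant (pBrL-1, 71 cells, and pBrL-2, 38 cells) on 3 chips. The 2 pregnant sets carry the same source label and were counted as 2 mice by their chips, which the label does not state. The test over mice below rests on that count. The *Brca1*-deficient mice share no sample with v53L and p53L. Of the genes past the fold toward p53L and tested in the double mutant pair, 521 of 821 (63.5%) had the same sign there, against 46.1% of all genes tested in both. Past the fold in both were 187 genes, 22.8% of the list here and 31.8% of the list there. Of all genes tested in both, 7.58% were past the fold toward pBr53L and 4.93% toward vBr53L, and 36 of the 821 were past it in the opposite direction there. Toward v53L, 524 of 803 (65.3%) had the same sign, against 53.9%. Of the 803, 176 (21.9%) were past the fold in both, and 91 were past it in the opposite direction there. The *Brca1* mutant mice gave 62.6% and 62.8%, with 51.4% and 48.6% over all genes. There 130 of 864 and 149 of 809 genes were past the fold in both, and 42 and 83 were past it in the opposite direction. Of all genes tested in that comparison too, 6.00% were past the fold toward the pregnant mice and 4.18% toward vBrL.

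Milk protein sums were higher in pregnancy in all 3 pairs by 2.12 (p53L over v53L), 1.93 (pBr53L over vBr53L) and 1.64 (pBrL over vBrL) on the log2 scale, and the lipid list by 1.05, 1.13 and 1.52. The hormone-sensing sum differed by -3.22, -1.82 and -3.77. The proliferation list did not go together: 3.59 in the *Trp53* mutant pair, -0.18 in the double mutants and 0.40 in the *Brca1* mutants. Its sum was 96.3 CPM in v53L and between 1170 and 2644 CPM in the 6 other luminal mice. The p53 target sum differed by -1.12, 0.17 and 0.29. *Trp53inp1* made up most of this sum in v53L, which stood at 5276 CPM against 2424 to 3289 CPM in the 6 other luminal mice. The prolactin and STAT5 sum, in which *Prlr* weighs most, differed by -2.32, 0.06 and -0.40.

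**Figure D4:**
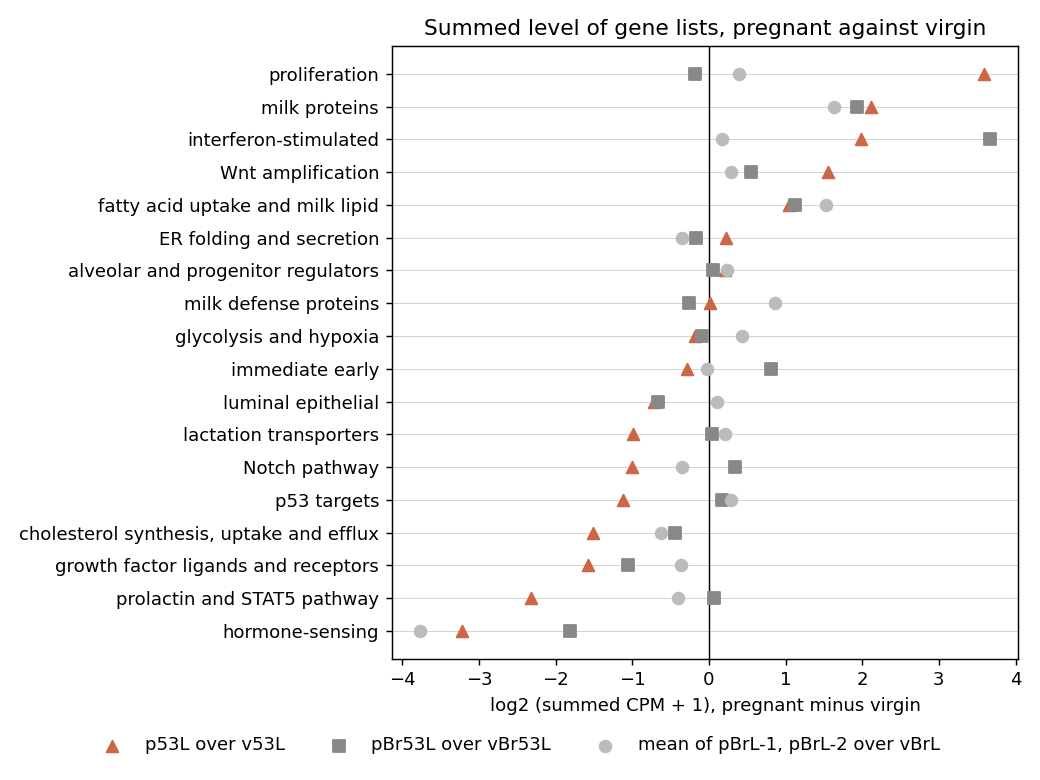
Log2 of summed CPM + 1, pregnant minus virgin (horizontal), for 18 gene lists (vertical) in 3 pairs: p53L over v53L (triangles), pBr53L over vBr53L (squares) and the mean of pBrL-1 and pBrL-2 over vBrL (circles). Milk protein, milk lipid and hormone-sensing lists lie on the same side of 0 in all 3 pairs, and the proliferation list is at 3.59, -0.18 and 0.40.

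Whether the effect of pregnancy differed between the *Trp53* mutant pair and the 5 *Brca1*-deficient mice was tested with the interaction of stage and *Brca1* status over the 7 luminal mice (edgeR quasi-likelihood test, 3 residual degrees of freedom). In this fit v53L and p53L, lone mice of their kind, are assumed to vary as the other 5 do, and chip and *Brca1* status cannot be told apart. Of 15550 genes 74 (0.476%) were called at an adjusted p under 0.05, 66 (0.424%) with a more positive effect in the *Trp53* mutant pair and 8 (0.0514%) with a more negative one. DESeq2 called 1300, among them these 74, and the edgeR count was 221 without vBr53L, 189 without vBrL, 229 with no filter on low counts and 16 with thinned counts. With 1 *Trp53* mutant mouse at each stage, an effect of pregnancy and a difference between these single mice cannot be told apart in these calls. Of the 66, 52 had at most 3 reads in v53L, and in 65 of the 74 calls v53L was the lowest of the 7 mice. In 34 of the 66 the p53L level lay within the range of the *Brca1*-deficient mice. Fitted fold changes of genes without reads in a mouse are not bounds and are left out.

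The 5 genes with the smallest adjusted p among the more positive effects were *Mki67*, *Uhrf1*, *Fam13a*, *Krt14* and *Rspo1*. *Mki67* had 1 read in v53L (0.0248 CPM), 111 CPM in p53L and 126 to 164 CPM in the 5 other mice (edgeR adjusted p = 0.0028). *Uhrf1*, which maintains DNA methylation through replication, was at 0.0248 and 80.96 CPM, and at 151 and 165 CPM in the other virgin mice against 47.3 to 84.8 CPM in the other pregnant mice (edgeR adjusted p = 0.0044). *Krt14* and *Rspo1* had 0 reads in v53L and at least 42.6 and 70.7 CPM in each of the 5 others (edgeR adjusted p = 0.0063 for both). *Fam13a* had 0 reads in v53L and 199 CPM in p53L, with 20.6 and 33.2 CPM in the other virgin mice and 106 to 141 CPM in the other pregnant mice (edgeR adjusted p = 0.0044). Of the proliferation list 8 of 24 genes were called, all more positive, against 0.476% of all genes tested. Of the hormone-sensing list 0 of 14 genes were called, which at that share says little about the list. The share of cells with at least 2 of the 4 genes was 37.1% in vBrL, 48.7% in vBr53L and 16.9 to 34.2% in the 3 *Brca1*-deficient pregnant mice.

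On the more negative side *Lalba* reversed. It was at 698 CPM in v53L and 196 CPM in p53L, but at 18.1 and 14.1 CPM in the other virgin mice and 144 to 220 CPM in the other pregnant mice. The difference of the log2 effects was -5.26 (SE 0.69, edgeR adjusted p = 0.014). *Deptor*, an inhibitor of mTOR, did the same with 270 and 63.9 CPM here against 36.2 and 25.6 CPM in the other virgin and 208 to 245 CPM in the other pregnant mice (difference -4.82, SE 0.68, edgeR adjusted p = 0.015). *Ahcyl2* was at 89.3 CPM in v53L and 0.153 CPM in p53L, and at 35.6 to 101 CPM in the others (edgeR adjusted p = 0.0063). *Lipm*, a lipase (142 CPM and 0 reads), and *Rbms3* (379 and 0.153 CPM) were called too (edgeR adjusted p = 0.020 and 0.021). Both lost the call with thinned counts, where the edgeR adjusted p was 0.14 for *Lipm* and 0.068 for *Rbms3*, the highest over their alternatives (the lowest were 0.000141 and 4.3e-05).

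**Figure D5:**
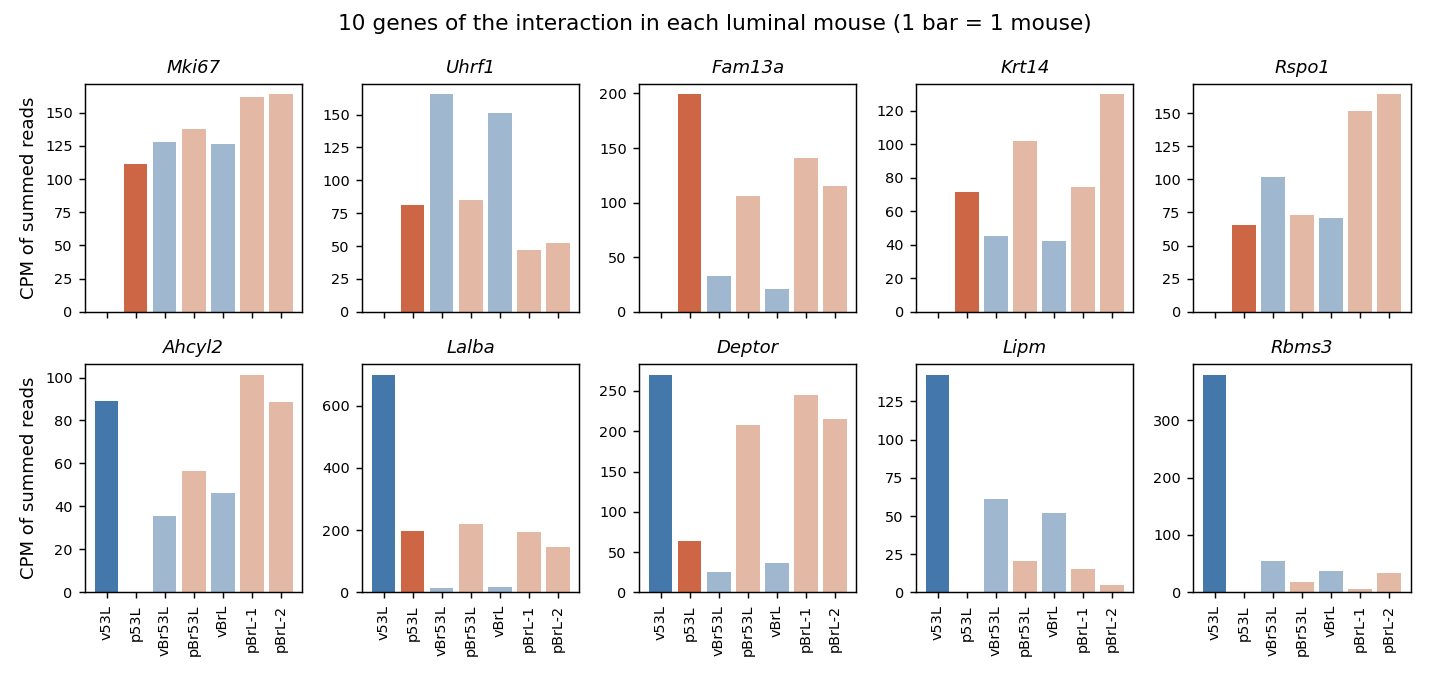
CPM of summed reads (vertical, from 0, own scale per panel) of 10 genes in the 7 luminal mice, 1 bar per mouse, with v53L and p53L in full color and virgin mice blue and pregnant mice orange. In the upper row v53L has at most 1 read while the 6 other mice have 20.6 CPM or more, and in the lower row *Lalba* and *Deptor* are higher in v53L than in p53L and lower in the other virgin than in the other pregnant mice.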

How the data were processed

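Cells were captured on C1 chips and cDNA was made with the SMARTer kit, without molecular identifiers. Quality filtering (sickle), trimming (Trim Galore 0.4.1), alignment to mm10 (STAR 2.5.3a) and counting per gene (Subread 1.5.3) were done by the authors (versions per the submitters' processing notes). The annotation and the use of strand are not given in the sources used here. The deposited values are raw counts per gene and cell for 21004 genes, of which 20919 (99.6%) matched GENCODE vM21 by symbol. The table held 0 mitochondrial genes. The authors looked for doublets in each capture site by microscope, and no doublet caller was run here. No cell was filtered, and no 2 cells had identical counts.

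Counts of p53L and v53L were summed per mouse and scaled to CPM, and log2((p53L + 1)/(v53L + 1)) was taken. Genes with at least 10 CPM in either mouse were tested, and past the fold meant a log2 difference of at least 2. Each cell was thinned to 100000 reads before cells with a read were counted. Intervals are exact (95%, Clopper-Pearson for shares), and 3 reads over a group stand in for a count of 0. PCR copies are not independent molecules, so intervals and floors cover counting error only. The interaction of stage with *Brca1* status was tested in edgeR 4.0.16 (TMM, filterByExpr, Benjamini-Hochberg) in R 4.3.3, with DESeq2 1.42.0 as an alternative. It was tested on 2 simulated data sets with 200 changed genes and recovered 58.5% of 32-fold and 86.0% of 256-fold differences, with 10 false calls beside 117 true ones and 4 beside 172. In these all mice had the same means, and only p53L was changed, in genes that averaged at least 10 CPM. The rates therefore do not describe calls that rest on few reads in v53L, or differences between chips. Other alternatives were other scalings, thresholds and sets of cells. Python 3.11.15 and scipy 1.17.1 were used.

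Named genes were first the 10 in each direction with the largest difference past the fold. These had at least 50 CPM and a read in at least 50% of the cells of the higher mouse, with gene models and ribosomal copies left out. The members of 26 gene lists were also named, as were up to 5 interaction calls in each direction with the smallest adjusted p. The members and lists were chosen with earlier results of these data known, and the limit of 1000 CPM of milk proteins after the values were seen.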

Additional observations from a re-analysis of the deposited data

Results flagged for a closer look

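The difference between the pregnant and the virgin *Trp53* mutant mouse was unlike that in the *Brca1*-deficient mice for 74 genes by the interaction term in edgeR, and 1522 genes had an unadjusted p under 0.05. The edgeR adjusted p was 0.0028 for *Mki67*, 0.0044 for *Uhrf1* and *Fam13a*, and 0.0063 for *Krt14*, *Rspo1* and *Ahcyl2*. It was 0.014 for *Lalba*, 0.015 for *Deptor*, 0.020 for *Lipm* and 0.021 for *Rbms3*. The virgin *Trp53* mutant mouse had at most 1 read of each of *Mki67*, *Uhrf1*, *Fam13a*, *Krt14* and *Rspo1*, and it had the fewest reads of the 7 luminal mice (40338926, against 45835235 to 115827852). With every cell thinned to 100000 reads 16 genes were called, all of them among the 74. *Lalba* and *Deptor* were read in at least 15 thinned cells of v53L and of p53L. In 65 of the 74 calls v53L was the lowest of the 7 mice. Stage and single mouse in the *Trp53* mutant pair, and chip and *Brca1* status, cannot be told apart in these calls.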

How the results depend on the processing

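Each stage is 1 mouse, and the stages were not tested against each other in any setting. The counts of genes past the fold (1038 higher and 1194 lower in p53L) were 275 and 404 with a pseudocount of 10 CPM, 287 and 441 with at least 50 CPM in 1 mouse, 2013 and 2356 at a log2 difference of 1, and 553 and 666 at 3. In cells with at most 1 of the 4 hormone-sensing genes, a setting chosen after seeing the data, 2386 genes were higher. List sums (log2, p53L over v53L) kept their direction in the planned settings for the milk protein, milk lipid, hormone-sensing and proliferation lists. In that order they were 2.25, 1.18, -3.08 and 3.72 with TMM factors, 2.34, 1.27, -2.99 and 3.82 with the milk proteins left out of the totals, and 2.11, 0.96, -2.87 and 3.76 after thinning. Milk lipid and hormone-sensing were 0.96 and -2.89 with equal weight for each cell, and without the 3 deepest cells of each mouse 1.01 and -3.19, with proliferation at 3.39. In the cells with at most 1 gene the 4 lists were at 0.90, 0.11, -0.17 and 4.18, where the hormone-sensing value was fixed in part by the choice of cells on members of that list. Of 102 genes past the fold that were followed, 0 changed direction in the planned settings. For TMM factors and totals without milk proteins this followed from the choice of genes. Each differed by at least 2, and these settings moved the median by 0.13 and 0.22. In the cells with at most 1 gene 11 changed direction: *Areg* (3.18), *Stc2* (3.13), *Tbx3* (3.06), *Prlr* (1.81), *Mtmr7* (1.12), *Insr* (0.97), *Slc12a2* (0.95), *Tspan1* (0.91), *Scd2* (0.50), *Ifit1* (-0.016) and *Bub1b* (-2.21), as did the prolactin and STAT5 list (1.31) and the fibroblast list (0.69). The fibroblast list was at 0.231 and 0.982 CPM there, and *Tbx3*, *Mtmr7*, *Insr*, *Tspan1*, *Scd2* and *Bub1b* were under 10 CPM in both mice. The cause was not tested. Interaction calls (74) were 73 with RLE factors, 229 with no filter on low counts, 16 with thinned counts, 1300 by DESeq2, and 76 to 221 with 1 *Brca1*-deficient mouse left out, where 221 came without vBr53L and 189 without vBrL. The share of cells with hormone-sensing genes was 87.5% in v53L and 72.2% in p53L with at least 1 gene, 2.78% in p53L with at least 3, and 82.5% in v53L with all reads. Cells with at least 5 genes of the hormone-sensing list made up 60% of v53L after thinning and 77.5% with all reads.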
